A study of Mus musculus with 8 samples.

Results

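The interleukin-10 family holds IL-10, its relatives IL-19, IL-20, IL-22, IL-24 and the interferons lambda, and the receptor chains that bind them. The 7 members described here, out of 52636 genes in the deposited tables, are the ligand genes Il10, Il19 and Il24 and the receptor genes Il10ra, Il10rb, Il20ra and Il20rb. They were chosen by gene name, with the UTP response of Il20rb in the libraries labelled P2Y2 KO as the reason for the choice, so that values of that contrast are given as a description and not as a test. RNA-sequencing was done on cADSC, adherent stromal cells grown from mouse cardiac adipose tissue. The 4 groups were P2Y2 KO cells with UTP at 100 µM every day for 7 days, untreated P2Y2 KO cells, WT cells with the same UTP treatment, and untreated WT cells. UTP is an agonist of the P2Y2 and P2Y4 nucleotide receptors, and the P2Y2 KO animals were on a mixed CD1/C57BL/6J background by the study's methods, while the labels name C57BL/6J. Mice were 12 to 16 weeks old, and males and females were used at random. Each group had 2 libraries, each from RNA pooled over 2 cultures, so that p-values measure the spread between pools and not between mice.

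These cytokines act through pairs of class II cytokine receptors that signal by the kinases JAK1 and TYK2 to STAT3. IL-10 binds the chain encoded by Il10ra, found mainly on leukocytes, and then recruits the widely expressed chain encoded by Il10rb, which IL-22 and the interferons lambda also use. IL-19, IL-20 and IL-24 bind the pair encoded by Il20ra and Il20rb, and IL-20 and IL-24 also bind Il20rb paired with Il22ra1, mostly on epithelial cells. In macrophages IL-10 restrains inflammatory genes, and in skin the IL-20 subfamily drives keratinocyte genes.

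The deposited values, read counts brought to a common library total and called scaled counts here, summed to between 20008555 and 20015454 in each library, so that a value of 10 was 0.5 CPM (the count relative to the library total) and a value of 0 allowed up to 0.15 CPM, a limit for counting error alone. P2ry2, the targeted gene, had 13.7 to 15.5 CPM in the 4 libraries labelled P2Y2 KO, against 16.4 to 18.1 CPM in the 4 WT libraries, and was not called between genotypes (log2 difference -0.26 without and -0.19 with UTP). Reads of the gene were thus not lost under the KO label, and which part of it was deleted is not given in the sources used here. Pool 1 of both groups labelled P2Y2 KO had Xist at 0.15 and 0.10 CPM, and pool 1 of untreated WT had no Y-linked reads of 4 such genes, so that the mix of sexes differed between pools. That WT pool also stood apart in its summed epithelial markers (13 genes, 19.4 CPM, against 133 to 169 CPM in the other WT libraries and 31.4 to 38.5 CPM in those labelled P2Y2 KO). The stromal markers Thy1, Eng and Cd44 were present in all libraries, and 14 macrophage markers summed to between 1492 and 4578 CPM. In RNA from whole cultures, fewer cells of a type and less RNA per cell cannot be told apart.

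The receptor chains differed widely in level, and the ligands were low. Per exon length and over all 8 libraries, Il10rb averaged 19.2 RPKM (CPM over the exon length in kilobases), Il10ra 2.97, Il10 1.63 and Il20rb 1.02 RPKM. Il20ra averaged 0.0823, Il24 0.027 and Il19 0.0109 RPKM, levels that rest on 32, 6 and 2 scaled counts summed over the 8 libraries. Of the 7 members, 4 passed the minimum of 0.5 CPM in at least 2 libraries and entered the test, and Il20ra, Il19 and Il24 did not.

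**Figure D1:**
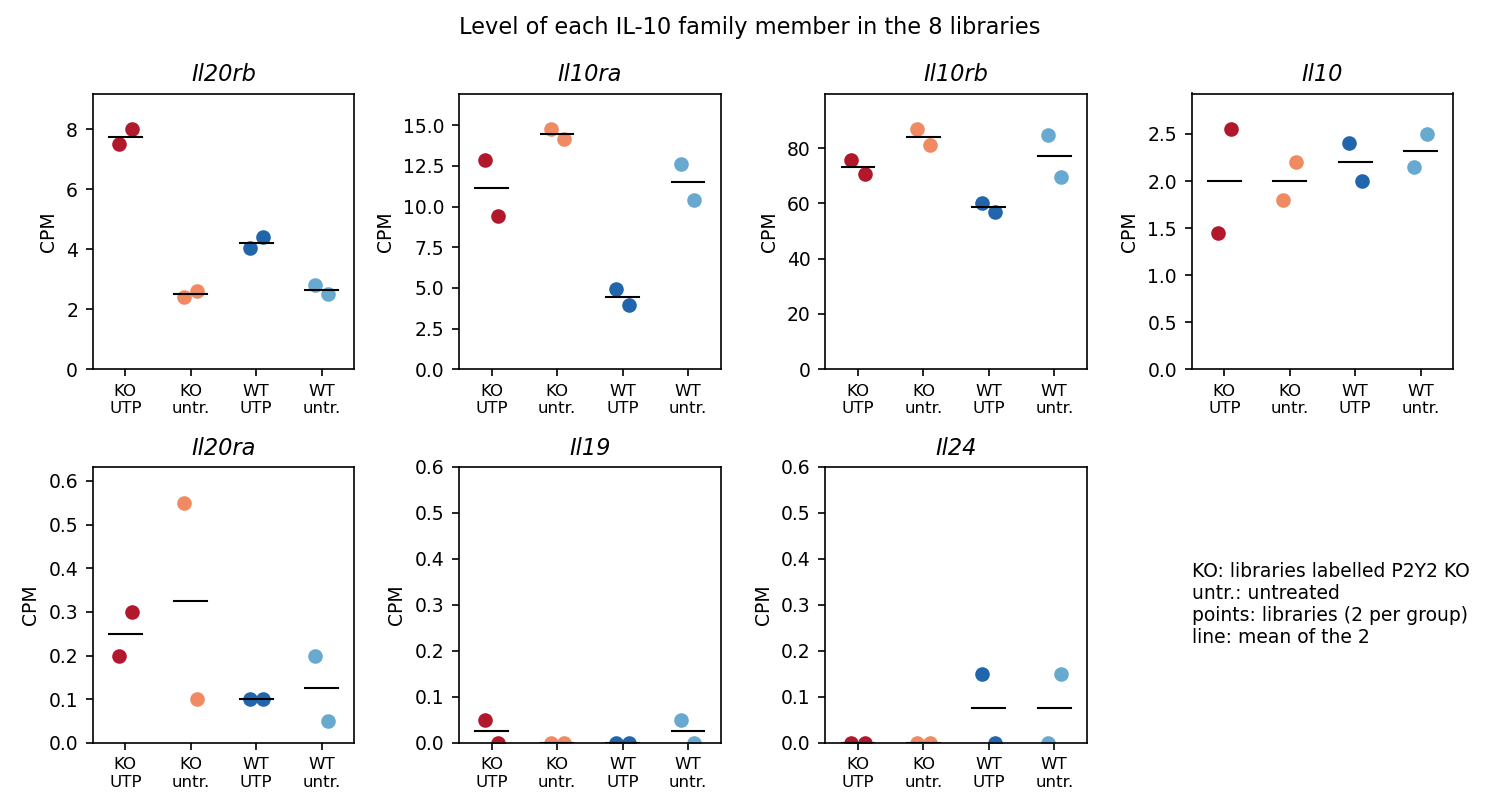
Level of each member in CPM (vertical axes, different in each panel) in the 8 libraries, for P2Y2 KO with UTP, P2Y2 KO untreated, WT with UTP and WT untreated. Points are libraries and lines the mean of 2. Il20rb sat at 7.50 and 7.99 CPM with UTP in the libraries labelled P2Y2 KO, above the other 6 libraries, and Il10ra at 4.95 and 3.95 CPM with UTP in WT, below the other 6.

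Il20rb, the beta chain shared by both IL-20 receptor types, had higher values with UTP in each genotype, without overlap between groups, about 3.10-fold in the libraries labelled P2Y2 KO and 1.59-fold in WT. The gene lies on chr9:100457719-100486788 (GRCm38, minus strand, ENSMUSG00000044244). In the libraries labelled P2Y2 KO it had 150 and 160 scaled counts with UTP, against 48 and 52 untreated. In WT it had 81 and 88 scaled counts with UTP, against 56 and 50 untreated. The untreated libraries of both genotypes overlapped in level, and the UTP libraries did not. Here and below, 2 libraries a group can fail to overlap by chance, and no share over all genes is given for it.

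In the contrast used for the choice, Il20rb averaged 7.75 ± 0.35 CPM with UTP and 2.50 ± 0.14 CPM untreated (SD, n = 2 pools each). Its log2 fold change was 1.64 (SE 0.15). Of the genes tested, 0.0342% were called there (6 of 17529, by an adjusted p under 0.05 in edgeR's quasi-likelihood test), and since Il20rb was chosen from them nothing is read from its place there. Ccl5 was the last gene inside that threshold with a log2 fold change of 2.73, and Itgax the first outside it with 0.72. In the same contrast the log2 fold change was -0.37 for Il10ra, -0.19 for Il10rb and 0.01 for Il10.

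The WT libraries took no part in the choice. There Il20rb averaged 4.22 ± 0.25 CPM with UTP and 2.65 ± 0.21 CPM untreated (SD, n = 2 pools each). Its log2 fold change was 0.67 (SE 0.16, 95% interval 0.31 to 1.03), with an adjusted p of 0.0849 over all genes in edgeR, so that it was not called. In that comparison 1.22% of the genes tested were called (214, of which 25 were higher and 189 lower with UTP). Over 15 alternative settings the log2 fold change stayed between 0.58 and 0.77 and the adjusted p between 0.0447 and 0.438, and it passed the threshold only with no minimum level. Leaving out untreated WT pool 1, the library that stood apart, gave a log2 fold change of 0.77 (edgeR adjusted p = 0.217).

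The UTP effect on Il20rb was larger by 0.96 on the log2 scale in the libraries labelled P2Y2 KO than in WT. Those libraries took part in the choice, so that no test is given. With UTP, Il20rb was 0.88 higher on the log2 scale in the libraries labelled P2Y2 KO than in WT, and without UTP it differed by -0.09.

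Il20ra, the alpha chain that Il20rb pairs with for IL-19, stayed near the limit of counting. It lies on chr10:19712570-19760053 (plus strand). It had 4 and 6 scaled counts with UTP and 11 and 2 untreated in the libraries labelled P2Y2 KO, against 2 and 2 with UTP and 4 and 1 untreated in WT. The treated and untreated groups overlapped in both genotypes. Between genotypes the UTP-treated groups did not overlap, at counts too low to enter the test. Il22ra1, the other chain that Il20rb can pair with, was measured at 130 and 106 scaled counts with UTP and 92 and 102 untreated in the libraries labelled P2Y2 KO. In WT it had 177 and 162 scaled counts with UTP, against 67 and 158 untreated, and its log2 fold change was 0.59 (SE 0.31, adjusted p = 0.356 from edgeR). Its low value was that of untreated WT pool 1, the library with few epithelial marker reads.

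The ligands of these receptors were at or under the limit of counting. Il19 (chr1:130932656-130940115, minus strand) had 1 and 0 scaled counts with UTP and 0 and 0 untreated in the libraries labelled P2Y2 KO, against 0 and 0 with UTP and 1 and 0 untreated in WT. Il24 (chr1:130882074-130887454, minus strand) had no reads in the libraries labelled P2Y2 KO, and 3 and 0 scaled counts with UTP against 0 and 3 untreated in WT. Il20, Il22, Iltifb, Ifnl2 and Ifnl3 had 0 in all 8 libraries, which allows up to 0.15 CPM in each. Il22ra2, a soluble IL-22 binding protein, had 0 to 2 scaled counts. Ifnlr1, the specific chain of the interferon lambda receptor, had 53 and 39 scaled counts with UTP and 51 and 40 untreated in the libraries labelled P2Y2 KO, against 57 and 40 with UTP and 34 and 37 untreated in WT. Of these 8 further family genes only Il22ra1 and Ifnlr1 entered the test, and neither was called in any of the 5 comparisons.

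The genes closest to Il20rb in their values over the libraries were mostly genes with higher values in UTP-treated libraries of both genotypes. Pearson's r was computed on log2(CPM + 0.5) over the 8 libraries, with CPM scaled by TMM, against 15406 genes averaging at least 1 CPM. It is a description, since all genes share libraries and depth and the 8 libraries form 4 groups. The highest r was that of Rcan1 (0.996), an inhibitor of the phosphatase calcineurin. Rcan1 had 1291 and 1324 scaled counts with UTP and 726 and 783 untreated in the libraries labelled P2Y2 KO, against 977 and 959 with UTP and 763 and 757 untreated in WT. Next came the chemokine gene Ccl5 (r = 0.959), Il1rn, the interleukin-1 receptor antagonist (0.947), Ephx1 (0.942), Prdx1 and Pdpn (0.937 each), the dectin-2 gene Clec4n (0.929), Elovl6 (0.924), Gm10516 (0.923) and Gm6863 (0.919). Rcan1, Ccl5, Il1rn and Clec4n were, with Il20rb itself, among the 6 genes called in the contrast that chose it, so that their likeness partly restates that choice.

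**Figure D2:**
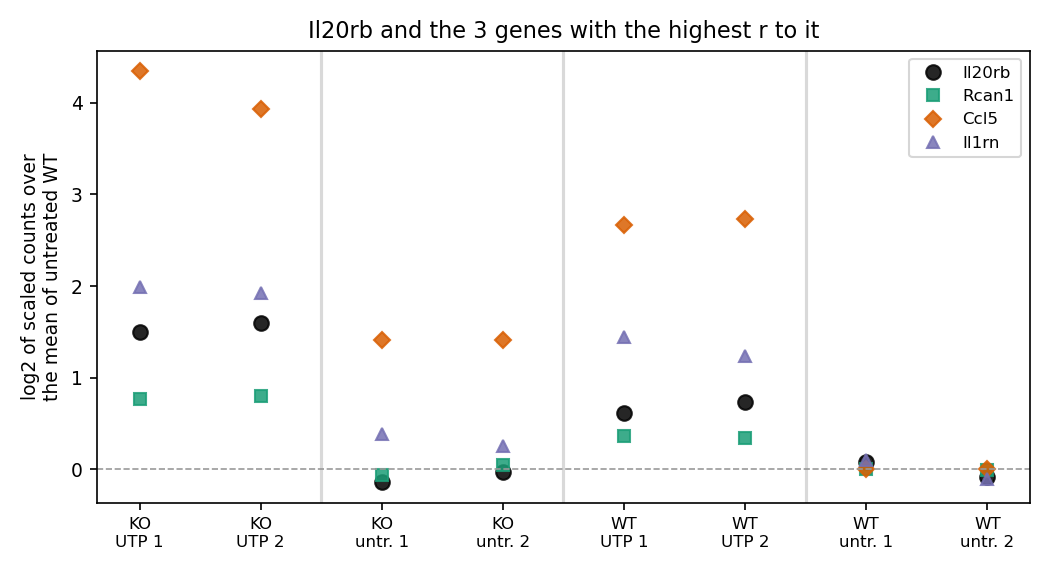
log2 of scaled counts over the mean of the untreated WT libraries (vertical axis) in each library (horizontal axis, P2Y2 KO with UTP to WT untreated), for Il20rb and the 3 genes with the highest r to it. In all 4 genes the UTP libraries labelled P2Y2 KO were highest and the UTP libraries of WT came next; Rcan1 spanned the smallest range and Ccl5 the widest.

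Genes next to Il20rb on the chromosome were not called with UTP. Nck1, an adaptor gene 5505 bases away, had a log2 fold change with UTP of 0.01 in the libraries labelled P2Y2 KO and -0.11 in WT. Stag1 had -0.02 and -0.03, and Slc35g2 had -0.02 and 0.34. Markers of some other cell types were measured beside Il20rb. The 5 dendritic markers summed to 94.6 and 91.8 CPM with UTP and 65.7 and 59.8 CPM untreated in the libraries labelled P2Y2 KO, against 74.2 and 69.4 CPM with UTP and 53.3 and 48.9 CPM untreated in WT. That sum was mostly Itgax, which some macrophages also express, while Flt3, Xcr1 and Ccr7 were under 1 CPM in all libraries. Zbtb46, at 12.2 to 13.7 CPM, had log2 fold changes with UTP of -0.03 in the libraries labelled P2Y2 KO and 0.05 in WT. The part of the dendritic markers in the Il20rb values was not tested. Epithelial markers in the libraries labelled P2Y2 KO summed to 36.4 and 31.4 CPM with UTP and 38.5 and 32.0 CPM untreated, which overlapped. In WT they summed to 169 and 167 CPM with UTP, against 19.4 and 133 CPM untreated, which did not overlap, and their part in the Il20rb values was not tested.

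Il10ra, the ligand-binding chain of the IL-10 receptor, was lower with UTP in WT, to 0.386 of its untreated mean. The gene lies on chr9:45253837-45269149 (minus strand). In WT it had 99 and 79 scaled counts with UTP, against 253 and 208 untreated. In the libraries labelled P2Y2 KO it had 257 and 188 scaled counts with UTP, against 295 and 283 untreated. The groups did not overlap in either genotype, and the distance between them was wider in WT.

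In WT, Il10ra averaged 4.45 ± 0.71 CPM with UTP and 11.5 ± 1.6 CPM untreated (SD, n = 2 pools each). The log2 fold change was -1.37 (SE 0.19, 95% interval -1.80 to -0.94, adjusted p = 0.0267 from edgeR), and Il10ra was the only 1 of the 4 tested members called. It was called in 10 of 15 alternatives, with a log2 fold change between -1.54 and -1.21. The call was lost without untreated WT pool 1 (-1.21, adjusted p = 0.0531), without UTP-treated WT pool 1 (0.222) or pool 2 (0.311), and without untreated pool 1 (0.0511) or pool 2 (0.0501) labelled P2Y2 KO, all from edgeR.

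The difference between both UTP effects on Il10ra was 1.00 on the log2 scale (95% interval 0.43 to 1.57), with an adjusted p of 0.837 from edgeR. No gene was called in that comparison (0%; 922 of 17529 had an unadjusted p under 0.05, and DESeq2 called 6). With UTP, Il10ra averaged 11.1 ± 2.4 CPM in the libraries labelled P2Y2 KO and 4.45 ± 0.71 CPM in WT, a ratio of 2.50. That log2 difference of 1.32 (95% interval 0.90 to 1.75) was called with an adjusted p of 0.00389 from edgeR, in a comparison where 17.4% of all genes were called. It was called under each of 15 alternatives, from 1.09 to 1.53, among them 1.21 with Xist as a covariate for the mix of sexes (edgeR adjusted p = 0.00966). Genotype and strain background cannot be told apart in these comparisons. Without UTP, Il10ra averaged 14.4 ± 0.4 CPM in the libraries labelled P2Y2 KO and 11.5 ± 1.6 CPM in WT, a log2 difference of 0.32 (adjusted p = 0.196 from edgeR) where 20.7% of all genes were called. These comparisons share libraries with each other and with the UTP contrasts.

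Macrophage markers moved with Il10ra. The 14 markers summed to 1547 and 1492 CPM with UTP and 3347 and 2437 CPM untreated in WT. There 10 of 14 were called lower, beside 1.22% of all genes called, with a median log2 fold change of -1.41 against 0.01 over all genes. In the libraries labelled P2Y2 KO they summed to 3187 and 3363 CPM with UTP and 4578 and 3989 CPM untreated. Their median there was -0.63 and none was called, beside 0.0342% of all genes. Between genotypes with UTP, 13 of 14 were called higher in the libraries labelled P2Y2 KO, beside 17.4% of all genes called. The median log2 difference was 1.21. Ptprc, the pan-leukocyte marker CD45, had a log2 fold change of -1.40 with UTP in WT (SE 0.22, adjusted p = 0.0334 from edgeR), close to that of Il10ra.

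Set over Ptprc, Il10ra did not separate treated from untreated libraries. The ratio of Il10ra to Ptprc was 0.242 and 0.170 with UTP and 0.162 and 0.191 untreated in the libraries labelled P2Y2 KO, against 0.204 and 0.172 with UTP and 0.162 and 0.225 untreated in WT. The groups overlapped between treatments in each genotype and between genotypes with and without UTP. Per 1000 CPM of the macrophage markers, Il10ra had 4.03 and 2.79 CPM with UTP and 3.22 and 3.55 CPM untreated in the libraries labelled P2Y2 KO, which overlapped. In WT it had 3.20 and 2.65 CPM with UTP, against 3.78 and 4.27 CPM untreated, which did not. Lyz2 weighed most in that marker sum, with 818 of 1547 CPM in UTP-treated WT pool 1 and 1219 of 3347 CPM in untreated WT pool 1. Its log2 fold change with UTP in WT was -0.44, against the list median of -1.41. The ratios of Il10ra to Ptprc and to the marker sum were chosen after the values had been seen and carry no test.

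**Figure D3:**
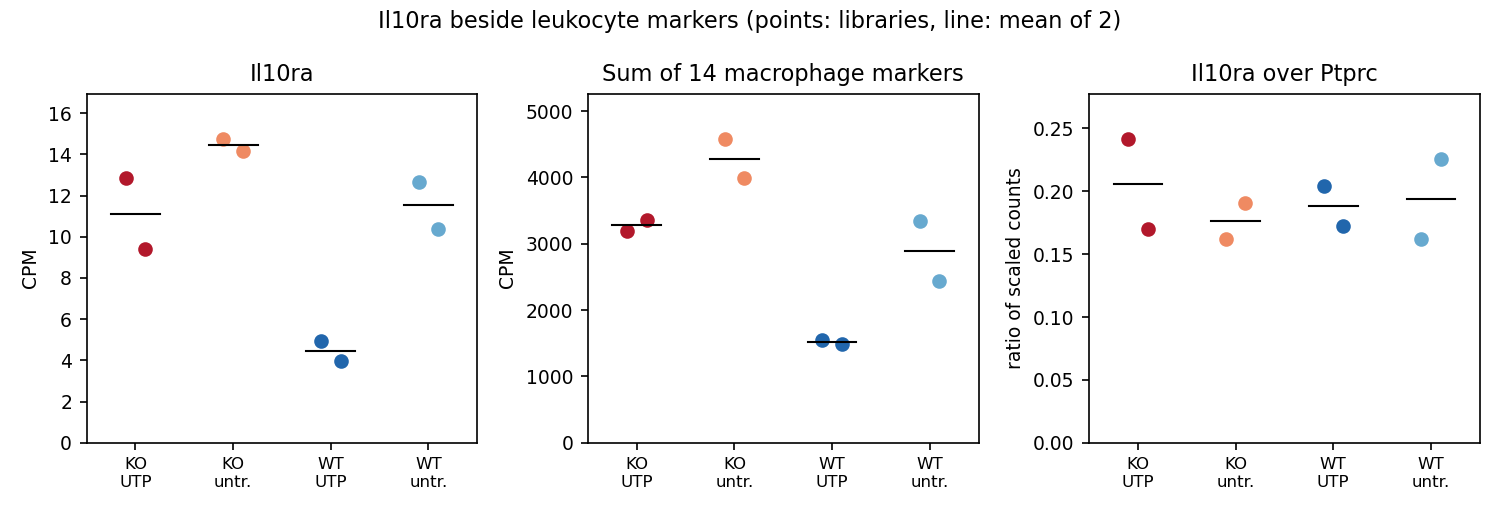
Il10ra in CPM (left), the sum of 14 macrophage markers in CPM (middle) and the ratio of Il10ra to Ptprc (right) in the 8 libraries, for P2Y2 KO with UTP, P2Y2 KO untreated, WT with UTP and WT untreated. Points are libraries and lines the mean of 2. UTP-treated WT had the lowest Il10ra (4.95 and 3.95 CPM) and the lowest marker sum (1547 and 1492 CPM), while the ratio to Ptprc lay between 0.162 and 0.242 in all libraries with the groups overlapping.

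The genes whose values followed Il10ra most closely over the 8 libraries were Ccl12, Ccl4, Pik3cb, Cd40 and Gm2245, with r between 0.982 and 0.987. Ccl12 and Ccl4 are chemokine genes of macrophages, and Cd40 is a costimulatory receptor of antigen-presenting cells.

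Il10rb, the chain shared with the receptors for IL-22 and the interferons lambda, was the most abundant member, and its values were lower with UTP in each genotype. It lies on chr16:91406164-91425834 (plus strand). In the libraries labelled P2Y2 KO it had 1513 and 1411 scaled counts with UTP, against 1736 and 1620 untreated. In WT it had 1205 and 1139 scaled counts with UTP, against 1699 and 1394 untreated. Treated and untreated libraries did not overlap in either genotype, which 2 libraries a group can also give without a change.

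In WT, Il10rb averaged 58.6 ± 2.3 CPM with UTP and 77.3 ± 10.8 CPM untreated (SD, n = 2 pools each). The log2 fold change of -0.40 (SE 0.09, adjusted p = 0.0885 from edgeR) was not called. It was called in 3 of 15 alternatives, and without untreated WT pool 1 the log2 fold change was -0.24 (edgeR adjusted p = 0.291). The UTP effects of both genotypes differed by 0.21 (95% interval -0.10 to 0.51). With UTP, Il10rb was 0.32 higher on the log2 scale in the libraries labelled P2Y2 KO than in WT (95% interval 0.10 to 0.54, adjusted p = 0.0507 from edgeR), and without UTP the difference was 0.11 (adjusted p = 0.409). Gm21970, a protein-coding annotation on the same strand at a mean of 60.1 CPM, overlaps Il10rb, so that the division of reads between them is uncertain. Among the genes most like Il10rb over the libraries were Grap (r = 0.996), Ikzf1, Gm45867 and Fmnl1, and Ikzf1 is a transcription factor of blood cells.

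Il10 itself was detected at a low level in each library and passed the test in none of the 4 comparisons in which it was tested. It lies on chr1:131019845-131024974 (plus strand). It had 29 and 51 scaled counts with UTP and 36 and 44 untreated in the libraries labelled P2Y2 KO, against 48 and 40 with UTP and 43 and 50 untreated in WT. The groups overlapped between treatments in each genotype and between genotypes. The log2 fold change with UTP in WT was -0.08 (95% interval -0.73 to 0.57, adjusted p = 0.911 from edgeR), an interval that leaves room for a change of either sign. The difference between genotypes was -0.22 without UTP (adjusted p = 0.617) and -0.13 with UTP (adjusted p = 0.798). The genes most like Il10 over the libraries were Tspyl2 (r = 0.931), AC154759.1, Ddx50, Rdh13 and Ehbp1l1. Of 7 regulators of Il10 transcription, none was called with UTP (median log2 fold change -0.06 in the libraries labelled P2Y2 KO and -0.11 in WT). Between genotypes, 2 of the 7 were called without UTP, beside 20.7% of all genes, and 1 of 7 with UTP, beside 17.4%. With so few genes, nothing is read from these counts about the regulators. Irf4, a factor of lymphoid and myeloid cells, was higher in the libraries labelled P2Y2 KO without UTP (log2 difference 1.13) and with UTP (1.19). Maf was higher there without UTP (0.32). The 4 B cell markers, whose lineage also expresses Irf4, were called higher in the libraries labelled P2Y2 KO with UTP (4 of 4, median log2 difference 2.53), and 2 of 4 without UTP (median 2.00), in sums of at most 9.25 CPM, and their part was not tested.

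**Figure D4:**
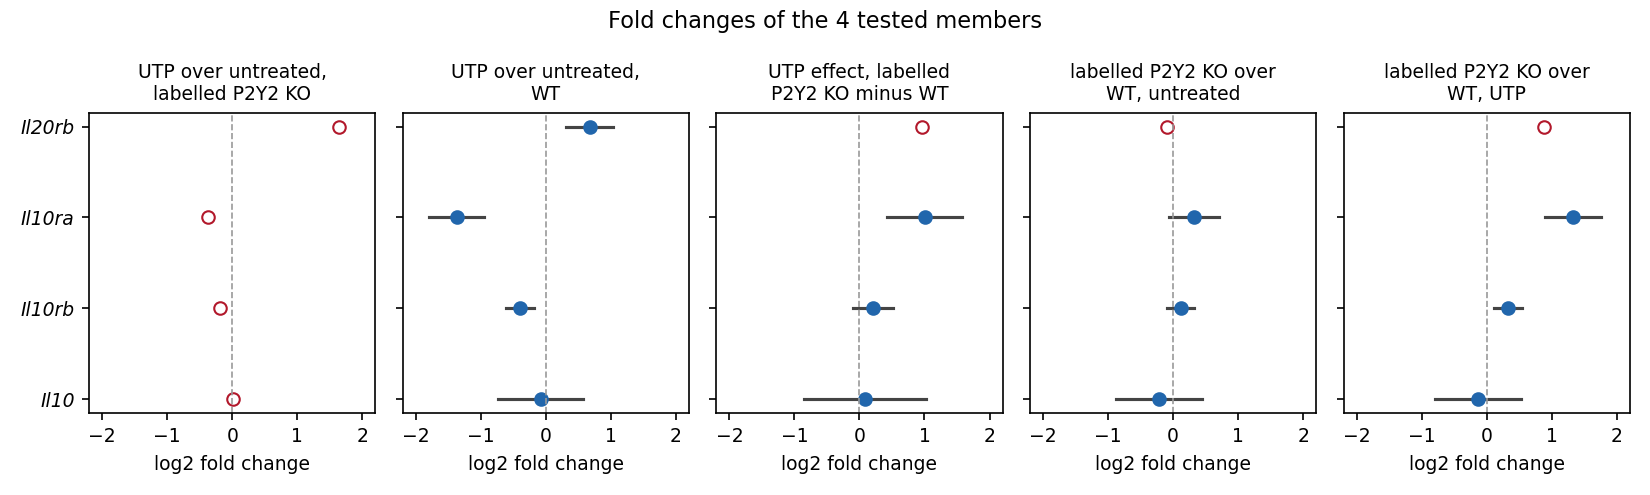
log2 fold change (horizontal axes) of the 4 tested members in the 5 comparisons. Filled points with bars are tested values with 95% intervals; open circles are values from libraries that took part in the choice of Il20rb, given with no interval. Il10ra lay at -1.37 with UTP in WT and at 1.32 between genotypes with UTP, the 2 intervals farthest from 0.

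The study's methods filtered genes by CPM and fold change without saying where the CPM minimum applies. Read here as a ratio of means above 2 or below 0.5 with at least 1 group above 0.5 CPM, Il10ra was the only member past the rule for UTP in WT (3.08% of genes were) and Il20rb the only one in the libraries labelled P2Y2 KO (1.36%). The second of these is again the contrast of the choice.

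The signalling genes downstream of these receptors were all expressed, and none of the 9 listed kinases, STATs and SOCS genes was called with UTP in either genotype (median log2 fold change 0.05 in the libraries labelled P2Y2 KO and 0.06 in WT; over all genes the median was between 0 and 0.016 in each of the 5 comparisons). Between genotypes without UTP 4 of 9 were called, beside 20.7% of all genes. Tyk2 (log2 difference 0.35), Stat3 (0.19) and the feedback inhibitor Socs3 (0.60) were higher in the libraries labelled P2Y2 KO, and Jak2 (-0.42) was lower. With UTP, Tyk2 (0.42) and Jak2 (-0.29) were called again, 2 of 9 beside 17.4% of all genes, a share near the background. Jak1, the partner kinase of the ligand-binding chains, had log2 differences of -0.15 and -0.17 without and with UTP, and was not called. Of 5 other class II receptors, Ifnar2 (0.44) and Ifngr1 (0.29) were higher in the libraries labelled P2Y2 KO with UTP, beside the same 17.4% of all genes, and none was called elsewhere.

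Genes known to respond to IL-10 in macrophages did not move one way. Of 12 such genes, Il1rn was called higher and the scavenger receptor gene Cd163 lower with UTP in WT, and the list had a median log2 fold change of 0.16. Il1rn had 1736 and 1509 scaled counts with UTP against 686 and 592 untreated in WT, and 2546 and 2417 with UTP against 836 and 763 untreated in the libraries labelled P2Y2 KO. Cd163 had 18 and 21 scaled counts with UTP against 236 and 121 untreated in WT, and fell by 3.19 on the log2 scale, in the same libraries in which the macrophage markers were lower. Both calls were known from earlier results of these data.

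Between genotypes, 8 of the 12 were called without UTP (median log2 difference 0.31) and 8 with UTP (0.33), beside the 20.7% and 17.4% of all genes given above. Hmox1, Nfil3, Sbno2 and Il1rn were higher in the libraries labelled P2Y2 KO in both comparisons, with log2 differences of 0.24 to 0.62, and the RNA-decay factor Zfp36 (-0.86 without and -1.28 with UTP) and Il4ra (-0.41 and -0.66) were lower. Bcl3 (0.96) and Socs3 (0.60) were called without UTP and not with UTP (0.67 and 0.16), Cd163 (1.71) and Tnip3 (2.15) were called with UTP and not without (-0.02 and 0.01), and the difference between UTP effects was not called for any of these. Macrophage markers were higher in the libraries labelled P2Y2 KO as well, with 13 of 14 called with UTP, as given above, and 5 of 14 called without UTP (13 of 14 above 0, median log2 difference 0.49), and their part was not tested.

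Of 8 inflammatory genes that IL-10 represses in macrophages, 5 were tested and none was called with UTP (median log2 fold change 0.58 in the libraries labelled P2Y2 KO and 0.38 in WT). Tnf had 234 and 152 scaled counts with UTP in the libraries labelled P2Y2 KO against 59 and 38 in WT (log2 difference 1.99, SE 0.34, adjusted p = 0.00736 from edgeR). Il12b had 11 and 11 against 4 and 1 scaled counts in the same groups (2.09). It passed the minimum of 0.5 CPM only through the UTP libraries labelled P2Y2 KO, where it was higher, so that nothing is read from its call. Ptgs2, which encodes cyclooxygenase-2, was lower in the libraries labelled P2Y2 KO, by a log2 difference of -1.20 with UTP and -1.02 without. Between genotypes 17.4% of all genes were called with UTP and 20.7% without. With UTP, 13 of 14 macrophage markers were called higher in the libraries labelled P2Y2 KO, and their part in these values was not tested.

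Of 8 epithelial genes that IL-20 subfamily cytokines induce in skin, 6 were tested and none was called with UTP in either genotype (median log2 fold change 0.43 in WT). Krt6a and Krt16 had 0 in all 4 libraries labelled P2Y2 KO, against 15 to 51 and 12 to 19 scaled counts in WT. With no reads there, neither gene could have been called with UTP in the libraries labelled P2Y2 KO. Krt17 had 0 to 3 against 18 to 199 scaled counts, with the lowest WT value in untreated pool 1. Lcn2, a secreted iron-trafficking protein, was higher in the libraries labelled P2Y2 KO (log2 difference 2.38 with UTP and 2.33 without). The epithelial marker sum, given at the start, was also higher in 3 of the 4 WT libraries than in those labelled P2Y2 KO, with untreated WT pool 1 below them, and its part in these values was not tested.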

How the data were processed

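Libraries were made with a stranded mRNA kit and sequenced as read pairs. Per the labels and the study's methods, the authors used Trimmomatic for trimming, STAR for alignment to mouse GRCm38.p4 and HTSeq for counts over Ensembl genes; versions and the strand setting are not given in the sources used here. The deposited values fit estimated counts multiplied by 1 factor per library (0.908 to 1.08) to a common total and rounded up, called scaled counts. The deposited ratio of UTP-treated over untreated means was not used. Gene positions and exon lengths came from GENCODE M21 (52403 of 52636 genes).

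Tests on scaled counts used edgeR 4.0.16 under R 4.3.3 (quasi-likelihood F test, TMM, 17529 genes above 0.5 CPM in at least 2 of 8 libraries, 4 groups in 1 fit, 4 residual degrees of freedom), with Benjamini-Hochberg adjustment over all genes tested and calls at 0.05. Each standard error was obtained by dividing a fold change (log2) by the root of its F. The fit was tested on simulated data. Alternatives were scaling by library size, a minimum of 2 CPM or none, DESeq2 1.42.0, the pool number as a block, scaling undone, Xist as a covariate and each library left out. The members and gene lists were chosen with earlier results of these data known. A list gene is named where it was called in any comparison or belongs to Il20, Il22, Il22ra1, Il22ra2, Ifnlr1, Jak1, Tyk2, Stat3 and Socs3; the ratios of Il10ra to Ptprc and to macrophage markers were added after values had been seen. One gene that the likeness rule names is not reported here.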

Additional observations from a re-analysis of the deposited data

How the results depend on the processing

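Counts of called genes depended on the tool and the minimum level. For UTP in WT they were 568 with DESeq2, 1083 with no minimum and 1 to 2403 with 1 library left out, against 214. For UTP in the libraries labelled P2Y2 KO they were 107, 319 and 2 to 156, against 6, and for the difference of both effects 6, 28 and 0 to 275, against 0. Between genotypes without UTP, DESeq2 called 2175, Xist as a covariate left 2048 and leaving out libraries gave 720 to 3984, against 3628. With UTP, leaving out libraries gave 640 to 4095, against 3053. The fold change rule gave 349 genes in WT and 127 in the libraries labelled P2Y2 KO with the minimum in both groups, and 232 and 70 with 1 CPM added, against 524 and 235.

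Of the members, DESeq2 called 2 for UTP in WT and no minimum called 3, and leaving out libraries gave 0 to 2. Il20rb was past the threshold there only with no minimum (log2 fold change 0.66, adjusted p = 0.0447 from edgeR). Leaving out libraries gave -1.54 to -1.21 for Il10ra in WT. For UTP in the libraries labelled P2Y2 KO, the contrast of the choice, no count of called members is given. Between genotypes with UTP, called members were counted without Il20rb, since the libraries labelled P2Y2 KO took part in its choice. Of the rest, 2 were called with no minimum, with 2 CPM and with the pool number as a replicate block, where Il10rb joined Il10ra. The main fit called Il10ra alone of them, beside 17.4% of all genes. Il10, never called, changed sign: leaving out libraries gave -0.21 to 0.043 in WT, -0.37 to 0.44 for the difference of effects and -0.60 to 0.23 between genotypes with UTP, and Xist as a covariate gave 0.078 without and 0.11 with UTP. Il10rb between genotypes without UTP went between -0.034 and 0.28 with 1 library left out.

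Same-numbered pools deviated together in the groups labelled P2Y2 KO (correlation 0.42, with Xist low in pool 1 of both) but not in all pairs of groups (-0.14 to 0.11 in the others), so that the numbers were not used as pairs over the 4 groups; with the replicate block 274, 6, 0, 3294 and 2895 genes were called in the 5 comparisons. Of the genes most like Il20rb, 9 of 10 were shared at a pseudocount of 0.1 and 10 at 1. Depth limits Il20ra, Il19 and Il24, which were not tested, and Il10, whose 95% interval for UTP in WT ran from -0.73 to 0.57.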
